A study of Mus musculus with 2 samples.

Results

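The first assembled megabase of each mouse autosome, positions 3000001 to 4000000 in the mm9 build, was examined in 2 sequencing libraries from mouse embryonic stem (ES) cells. The region was taken in bins of 1 kb on chromosomes 1 to 19, leaving out 2 short stretches of very high coverage on chromosomes 9 and 12. This left 18959 bins of the 2472366 autosomal bins up to the last read, or 0.767%. Each chromosome was set against its own flank, positions 4000001 to 10000000, which comprised 114000 bins in all. The bins were chosen by position alone, but the stretches left out were known for their coverage.

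Both libraries came from ES cells, the pluripotent cells of the early embryo, grown with the cytokine LIF and no feeder layer. The library labelled H2ABbd was made by chromatin immunoprecipitation (ChIP-seq) with a home-made rabbit antibody against mouse H2ABbd, from crosslinked chromatin sonicated to 200 to 400 bp, with 20 PCR cycles. The library labelled 5mC was made by methylated DNA immunoprecipitation (MeDIP-seq) with a mouse monoclonal antibody against 5-methylcytosine (clone 33D3), from denatured genomic DNA sonicated to 100 to 400 bp, with 15 PCR cycles. The labels give no strain, line or passage. There was 1 library per antibody and no input library was used here, so no difference has a replicate check, no test between the antibodies was possible, and every interval covers counting error only. The names of the deposited files assign the 2 antibodies in the opposite way to the sample records. The sample records were followed, and every direction below rests on them.

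Mouse autosomes carry their centromere at one end, and reference builds leave the centromere itself as a gap. The core of this end is made of minor satellite repeats, flanked by long arrays of major satellite that form constitutive heterochromatin, rich in methylated DNA. Chromosome arms begin beyond the gap, often with segmental duplications and repeated gene families next to unique sequence. H2ABbd is a short variant of histone H2A whose nucleosomes wrap less DNA, and 5-methylcytosine is the main methylated base of mammalian DNA. The gene table at hand was on the GRCm38.p6 build and gave names and order only, so no bin was assigned to a gene. In that order the most proximal named protein-coding genes were Sfi1 (a centrosomal protein) on chromosome 11, Insr (the insulin receptor) on chromosome 8, Rab10 (a small GTPase of membrane traffic) on chromosome 12, Hnf4g (a nuclear receptor) on chromosome 3, and the pheromone receptor genes Vmn1r2 and Vmn1r3 on chromosome 4. No mm9 sequence was used here, so regions are given by coordinates.

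Counted once per position and strand, the library labelled H2ABbd held 1346417 distinct autosomal reads and that labelled 5mC 7690224. The first megabases held 12963 and 75464 of these, or 0.963% and 0.981%. Reads that repeated a position were 22.3% of H2ABbd reads in the first megabases (exact Clopper-Pearson 95% interval 21.7 to 23.0%) and 19.7% in the flanks, far from the 60.9% over all autosomes, where a few pile-ups dominate. For 5mC they were 6.77% and 4.94%. Bins with no read in either library were 8.90% of the first megabases (8.50 to 9.32%), 10.1% of the flanks and 10.4% of the autosomes from 3 Mb on. The share of empty bins was higher than in the flank on 9 of 19 chromosomes, and it ran from 1.90% on chromosome 11 to 17.7% on chromosome 1.

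Both antibodies gave more reads in the first megabases than in the flanks, and most of the excess lay on a few chromosomes. Pooled over 19 autosomes, the library labelled H2ABbd had 0.684 distinct reads per kb in the first megabases and 0.509 in the flanks, 1.34 times as many (exact conditional 95% interval 1.32 to 1.37). The library labelled 5mC had 3.98 and 3.09 per kb, 1.29 times as many (1.28 to 1.3). The median over chromosomes was lower, 1.21 (quartiles 0.893 to 1.45) for H2ABbd and 1.15 (0.993 to 1.34) for 5mC. Leaving out chromosome 11 lowered the pooled values to 1.15 for both. Without the 0.1% most covered autosomal bins they were 1.10 and 1.08, and the medians 1.11 and 1.00.

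Single chromosomes moved in either direction. The H2ABbd density was above that of the flank on 12 of 19 chromosomes, with the counting interval above 1 on 10 and below 1 on 5. The 5mC density was above it on 13, with the interval above 1 on 13 and below 1 on 4. On 12 chromosomes both libraries were above the flank, on 6 both were below, and they differed on 1, chromosome 17. Across the 19 chromosomes the log2 folds of the libraries had a Pearson r of 0.855 (Spearman rho 0.811), and 0.767 (0.777) without chromosome 11. These points share the sequence and the mappability of each chromosome.

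Megabase windows of the genome vary, so the same comparison was made for every autosomal window that has 6 windows after it. The H2ABbd density of the first megabase was above each of its 6 flanking windows on 9 of 19 chromosomes (4, 5, 6, 8, 9, 11, 12, 13 and 18), or 47.4%, where 16.7% of 2291 windows were above their next 6. Without the most covered bins the count was 6. With all reads kept it was 7 in each library. The shares of windows given here are for the main setting only and are not the background of these altered counts. The H2ABbd density was below all 6 on 1 chromosome, chromosome 1 (5.26%), against 16.8% of windows. For 5mC the first megabase was above all 6 on 5 chromosomes (4, 5, 8, 11 and 16), 26.3% against 17.0%, and below all 6 on chromosome 15 alone, 5.26% against 18.8%. By size, 4 chromosomes (21.1%) reached 1.5 times the flank in H2ABbd against 14.7% of windows, and 3 (15.8%) in 5mC against 9.47%. Low folds were fewer: 1 chromosome (5.26%) was at 1/1.5 or less in H2ABbd against 22.2% of windows, and 0 in 5mC against 14.1%. Counts by size depended on the flank. Against 10 to 20 Mb, 8 chromosomes reached 1.5 in H2ABbd and 4 in 5mC. No share of all windows is given for that more distant flank, so these counts have no background. With it chromosome 19 moved from 1.05 to 2.70 in H2ABbd and from 1.10 to 1.75 in 5mC.

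**Figure D1:**
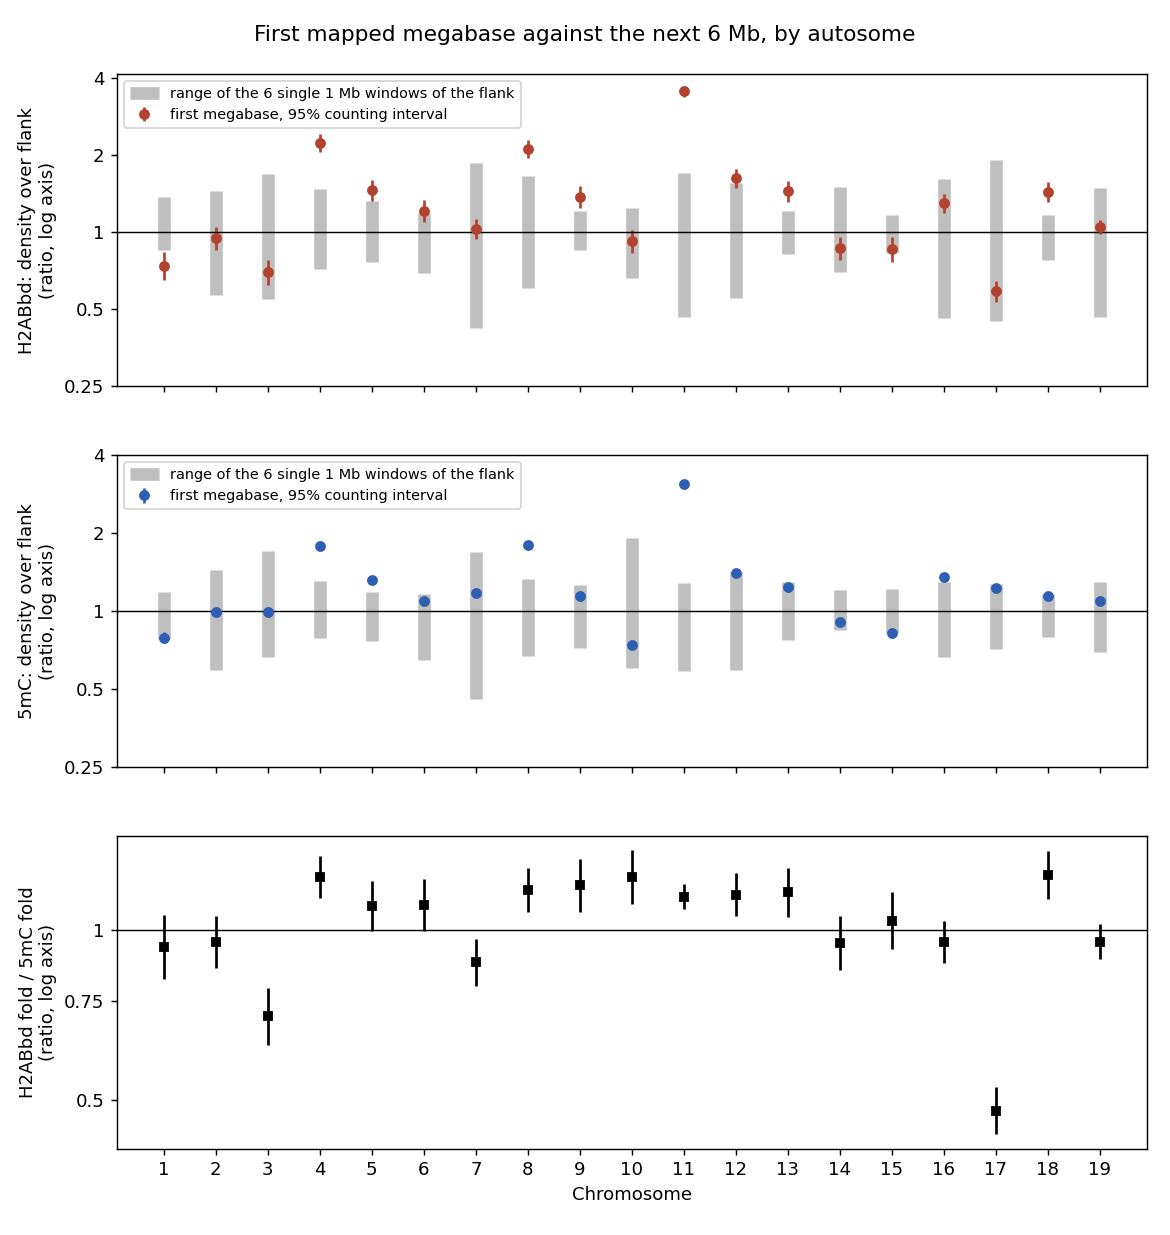
Density of distinct reads in the first megabase over that in the next 6 Mb, for each of chromosomes 1 to 19, in the library labelled H2ABbd (top), the library labelled 5mC (middle) and as the ratio of the 2 folds (bottom), on log axes. Points carry 95% counting intervals and grey bars in the upper panels span the 6 single windows of the flank. Chromosomes 4, 5, 8 and 11 lie above the bar in both libraries, and chromosome 17 has the lowest ratio, 0.479.

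Chromosome 11 had the highest fold in both libraries. Its first megabase held 2767 distinct H2ABbd reads, 2.77 per kb, against a flank mean of 0.781 and flank windows of 0.363 to 1.33 per kb. This was 3.54 times the flank (3.38 to 3.71). In 5mC it held 12682 reads, 12.7 per kb, against 4.11 and windows of 2.43 to 5.30, a fold of 3.09 (3.02 to 3.16). The first 100 kb alone held 69.9% of the H2ABbd and 64.7% of the 5mC reads of the megabase, at 24.8 and 20.0 times the flank. From 3.1 to 4 Mb the folds were 1.18 and 1.21, so most of the rise on this chromosome lay in its first 100 kb. Against positions 10 to 20 Mb in place of 4 to 10 Mb the fold was 7.84 in H2ABbd and 5.25 in 5mC.

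Chromosome 4, next in H2ABbd and just below chromosome 8 in 5mC, held 856 H2ABbd reads (0.856 per kb, flank windows 0.276 to 0.566) and 4461 5mC reads (4.46 per kb, windows 1.96 to 3.26). The folds were 2.22 (2.05 to 2.41) and 1.79 (1.73 to 1.85). Here too the first 100 kb stood out, at 10.4 and 5.92 times the flank with 402 and 1474 reads. From 3.1 to 4 Mb the folds were 1.31 in H2ABbd and 1.33 in 5mC. With repeated reads kept, the H2ABbd fold of the megabase was 3.57, since 46.2% of its H2ABbd reads repeated a position.

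On chromosome 8 the rise was broad. Its first megabase held 763 H2ABbd and 4114 5mC reads, 0.763 and 4.11 per kb, against flank windows of 0.218 to 0.597 and 1.55 to 3.06. The folds were 2.11 (1.94 to 2.30) and 1.80 (1.73 to 1.86). No bin held more than 16 H2ABbd or 23 5mC reads, and without all bins called enriched the folds were still 1.94 and 1.77. The densest steps ran from 3300001 to 3700000, at 2.47, 3.07, 3.1 and 4.38 times the flank in H2ABbd and 2.08 to 2.75 times in 5mC. The rise depended on the flank: against 10 to 20 Mb the folds were 1.01 in H2ABbd and 0.877 in 5mC. The megabase was denser than the 6 Mb beside it and close to the 10 Mb further on in H2ABbd.

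Chromosome 12, outside the 3 highest, is described as the only other chromosome at 1.5-fold or more, in H2ABbd only, and was chosen after its values were seen. It held 749 H2ABbd reads (0.751 per kb, flank windows 0.256 to 0.718), 1.62 times the flank (1.49 to 1.76), and 4259 5mC reads (4.27 per kb, windows 1.81 to 4.33), 1.4 times (1.36 to 1.45). These values lack the 2 kb stretch left out by rule. Steps above 2 in H2ABbd were spread along it, at 3000001 to 3100000 (2.44), 3300001 to 3400000 (2.53), 3800001 to 3900000 (2.72) and 3900001 to 4000000 (2.42).

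At the other end of the range, chromosome 17 had the lowest H2ABbd fold, 0.587 (0.534 to 0.644). Its first megabase held 495 H2ABbd reads, 0.495 per kb, against a flank mean of 0.843 and windows of 0.378 to 1.61, so it lay within the spread of its neighbours. Against 10 to 20 Mb the fold was 0.911. In 5mC the same megabase was above the flank mean with 5042 reads, a fold of 1.23 (1.19 to 1.26), again within its windows. Its 5mC excess came from the first 100 kb, where 2217 reads made 5.40 times the flank, and from 3.1 to 4 Mb the 5mC fold was 0.764. Chromosome 3 (0.696, 0.624 to 0.776) and chromosome 1 (0.737, 0.650 to 0.833) were the next lowest in H2ABbd, though chromosome 3 was at 1.05 against 10 to 20 Mb. In 5mC the lowest were chromosome 10 (0.742, 0.713 to 0.772), chromosome 1 (0.790, 0.753 to 0.829) and chromosome 15 (0.825, 0.791 to 0.860). The chromosome 10 flank holds a very dense 5mC window of 7.28 reads per kb, and without the most covered bins its fold was 0.892.

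Pooled, the balance between the antibodies differed little between the centromere-proximal end and the flank. The H2ABbd fold over the 5mC fold was 1.04 when pooled (1.02 to 1.06), with a median over chromosomes of 1.10 (quartiles 0.951 to 1.17). The pooled value turned to 0.997 without chromosome 11 and to 0.980 with a flank of 4 to 7 Mb, and the median to 0.957 with all reads kept. The ratio interval was above 1 on 8 chromosomes and below 1 on 3. The ratio exceeded that of each flank window on 3 chromosomes (4, 12 and 18), 15.8%, against 14.6% of windows, a share near the background. The highest ratios were on chromosomes 18 (1.25, 1.13 to 1.38), 10 (1.24, 1.11 to 1.38) and 4 (1.24, 1.14 to 1.35). The lowest was on chromosome 17 (0.479, 0.434 to 0.528), followed by chromosome 3 (0.703, 0.627 to 0.789) and chromosome 7 (0.876, 0.797 to 0.963). Chromosome 17 was the only one at 1/1.5 or less, 5.26% of chromosomes against 4.20% of windows, and 0 reached 1.5 against 2.67%. Against 10 to 20 Mb chromosome 19 reached 1.54 (1.43 to 1.66), from 0.953, and chromosome 11 stood at 1.49.

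Within the megabase, density did not climb steadily towards the centromere. In the step nearest to it, 3000001 to 3100000, the pooled folds were 3.62 in H2ABbd and 3.1 in 5mC, but the medians over chromosomes were 1.13 and 1.11, and 13 of 19 chromosomes were above their flank in each library. Without the most covered bins the pooled folds of this step were 1.06 and 1.11. The H2ABbd medians were 1.13, 1.10 and 1.11 in the next 3 steps and 0.855 and 0.744 in the 2 after them. Just inside the 4 Mb boundary, at 3900001 to 4000000, the medians were 1.08 and 1.00, and just outside it, at 4000001 to 4100000, they were 1.18 and 1.06. No break in either library was visible at the boundary that defines the megabase.

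**Figure D2:**
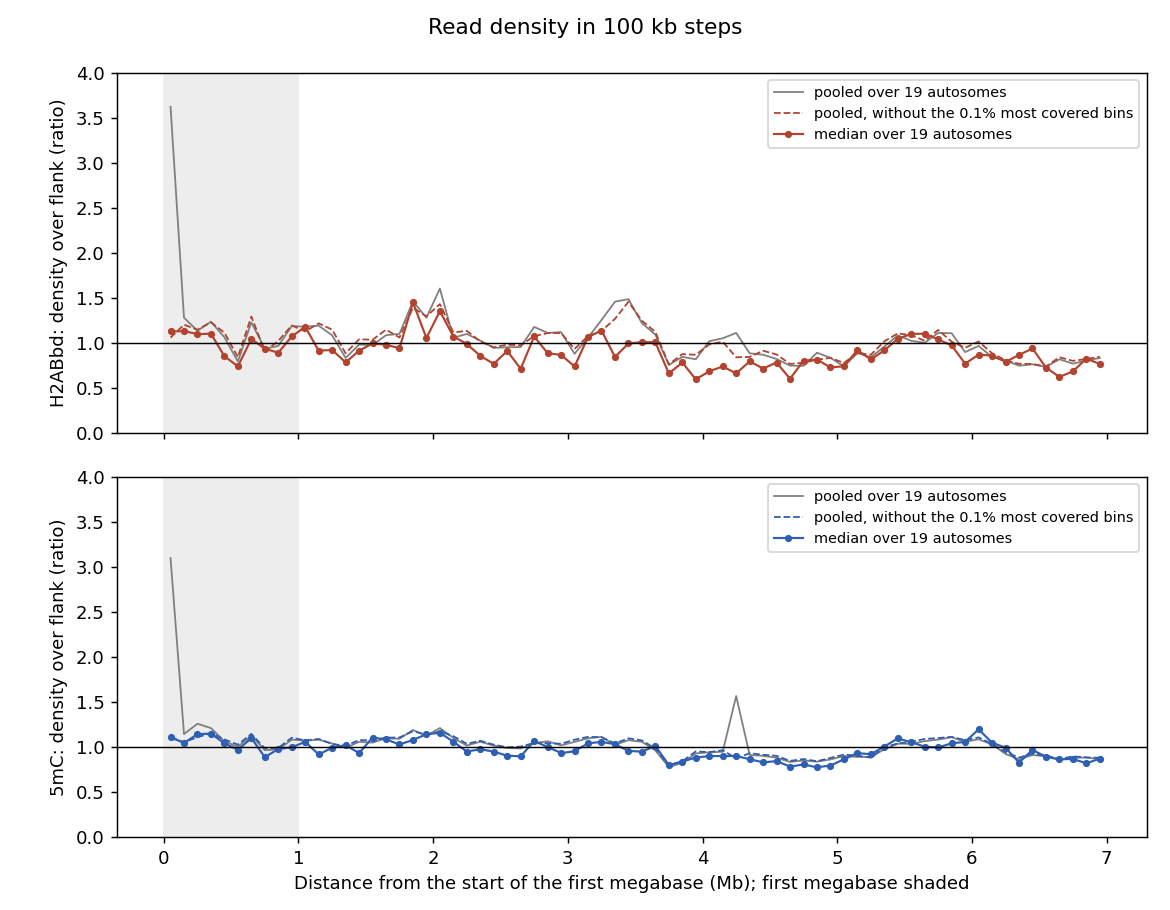
Density of distinct reads in 100 kb steps from the start of the first megabase to the end of the flank, over the flank mean, in the library labelled H2ABbd (top) and that labelled 5mC (bottom). The grey line pools 19 autosomes and reaches 3.62 and 3.1 in the first step, while the median over chromosomes (points) is 1.13 and 1.11 there.

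Single steps of the first megabases were dense more often than those of the flanks. In H2ABbd 26 of 190 steps of 100 kb (13.7%) lay at 2 times the flank mean of their chromosome or more, against 68 of 1140 flank steps (5.96%) and 7.07% of both together. In 5mC 13 steps did (6.84%), against 9 flank steps (0.789%) and 1.65% of both. Flank steps are part of the mean they are held against. The densest H2ABbd steps outside chromosomes 4, 8 and 11 were at 2.72 times on chromosome 12 (3800001 to 3900000), 2.72 on chromosome 13 (3300001 to 3400000), 2.71 on chromosome 16 (3300001 to 3400000) and 2.70 on chromosome 18 (3000001 to 3100000). Across the 190 steps the log2 densities of the libraries had a Pearson r of 0.757 (Spearman rho 0.655), against 0.740 (0.690) in the 1140 flank steps. Without called bins r was 0.711 and 0.797. Steps of 1 library pair share their sequence and mappability, and neighbouring steps are not independent.

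**Figure D3:**
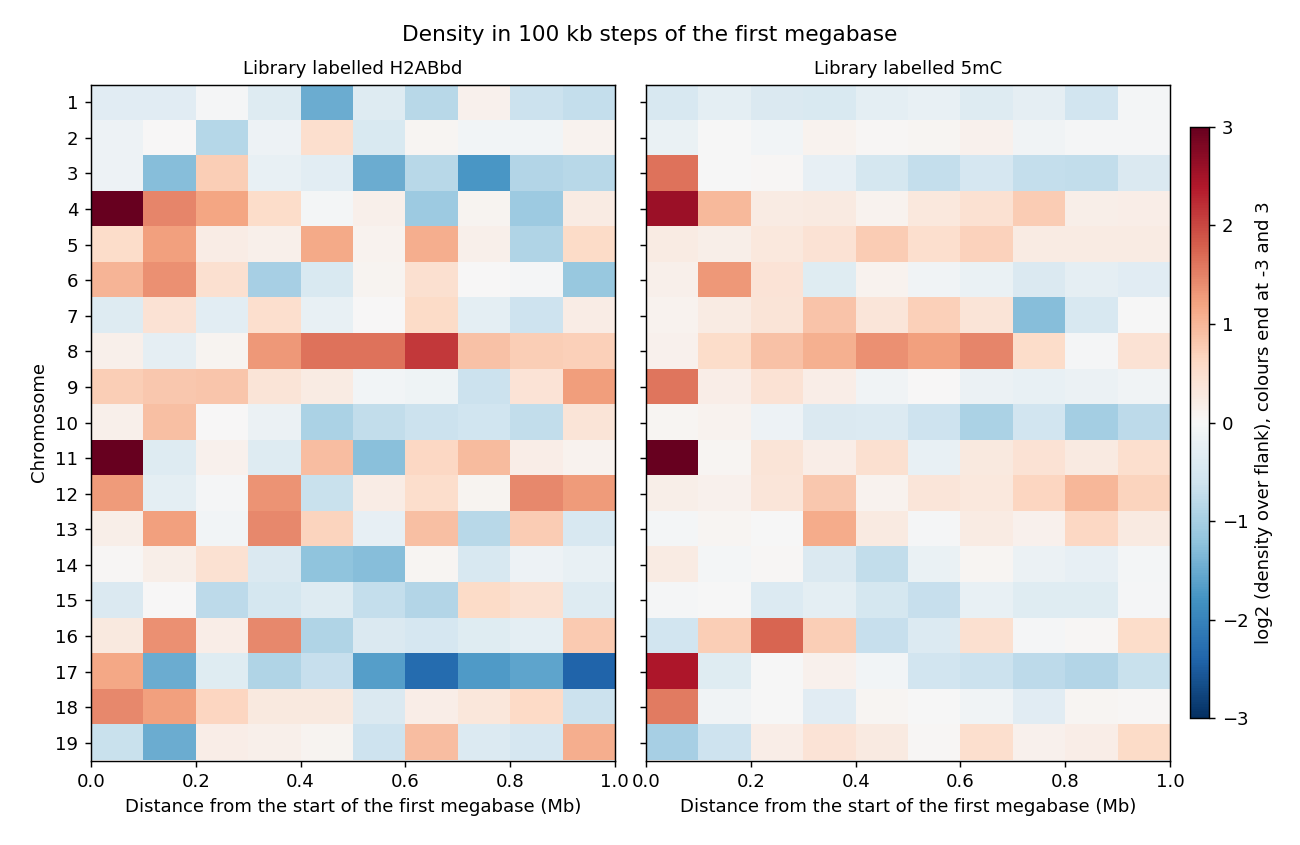
Density in each 100 kb step of the first megabase over the flank of the same chromosome (log2 colour scale, red denser and blue sparser), for chromosomes 1 to 19 in the library labelled H2ABbd (left) and that labelled 5mC (right). The first step of chromosomes 4 and 11 is red in both libraries, chromosome 8 is red from 0.3 to 0.7 Mb, and chromosome 17 is blue in H2ABbd beyond its first step.

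Enriched bins were then counted. A bin was called enriched in a library at 4 times the mean of its chromosome or more and an adjusted Poisson tail of 0.01 or less. In H2ABbd 292 of 17271 bins with a read were called, 1.69% (1.5 to 1.89%), against 1.19% of autosomal bins and 1.15% of flank bins. In 5mC 288 were called, 1.67% (1.48 to 1.87%), against 0.515% and 0.485%. In both libraries 99 were called, 0.573% (0.466 to 0.697%), against 0.126% and 0.142%. Much of this lay at the start of a few chromosomes: from 3.1 to 4 Mb the shares were 1.28%, 0.719% and 0.167%, and chromosome 11 alone held 63 of the H2ABbd bins, 87 of the 5mC bins and 53 of those called in both. Without the most covered bins the share called in both was 0.0936% against 0.0775% of the autosomes, but that filter removes by construction the bins most likely to be called in both.

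All 19 chromosomes had an enriched H2ABbd bin in the first megabase, as had 98.7% of autosomal 1 Mb windows. In 5mC 17 had one, against 74.3% of windows, and 13 had one called in both, against 47.0%. The H2ABbd share is at the background. Joined where they adjoin, called bins formed 220 H2ABbd regions, 182 of them a single bin, and 100 5mC regions, 72 of them a single bin. Their median folds were 12.5 and 4.88. Of 270 regions called in either library, 170 held H2ABbd calls alone (63.0%, against 67.5% of 28660 autosomal regions), 70 held 5mC calls alone (25.9%, against 23.4%) and 30 held both (11.1%, against 9.05%). The split was thus near that of the autosomes. Calls in the sparser H2ABbd library need a higher fold, so the numbers called in 1 library alone are not comparable between the libraries.

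Long stretches made up a larger share of the 5mC regions here than over the autosomes. Of the 100 5mC regions 8 were 5 kb or longer (8%), against 0.846% of the 9339 autosomal ones, so 10.1% of the 79 long autosomal stretches fell in the first megabases, which make up 0.767% of the bins. At 10 kb or longer it was 5 of 36 (13.9%), and at 2 kb or longer 28 of 829 (3.38%). The 8 lay on chromosomes 3, 4, 11, 16 and 17. In H2ABbd 5 of 220 regions reached 5 kb (2.27%), against 0.431% of autosomal regions, which is 5.26% of the 95 long ones. At 2 kb it was 38 of 2772 (1.37%), and at 10 kb 0 of 9. The 5 kb length was chosen after the values were seen.

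The longest 5mC stretch ran for 78 kb on chromosome 11 from 3022001 to 3100000. It held 7608 distinct 5mC reads, 97.5 per bin with a range of 25 to 232, and stood at 23.6 times the chromosome mean (Poisson 95% interval 23.0 to 24.1). The 5 bins before it averaged 8.60 reads and the 5 after it 7.00. The level rose over several bins at the proximal edge and dropped within a few at the distal one. The library labelled H2ABbd had 1516 reads there, 26.1 times the mean (24.8 to 27.5), but very unevenly: the median bin held 9, 2 bins held none, and the densest, 3050001 to 3051000, held 231, which is 11.9 times the mean of the stretch. Another peak lay at 3093001 to 3094000 with 162 H2ABbd and 178 5mC reads. The called H2ABbd region around the first peak, 3049001 to 3054000, held 300 H2ABbd reads (80.6 times the chromosome mean, 71.7 to 90.2). That around the second, 3092001 to 3096000, held 195 (65.5 times, 56.6 to 75.3). In 5mC the densest bin, with 232 reads, was 2.38 times the mean of the stretch. Within the stretch reads were more even in 5mC and gathered in narrow peaks in H2ABbd. That contrast follows in part from the choice of bins. All 78 bins had to be called in 5mC, which sets a floor there, and 48 were called in H2ABbd, where no floor applied. The H2ABbd depth was also lower, at 19.4 reads per bin.

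At the very start of chromosome 11, 3000001 to 3005000, the relation was different. These 5 bins held 409 H2ABbd reads (110 times the mean, 99.5 to 121) and 482 5mC reads (23.3 times, 21.3 to 25.5). Per distinct read of each library H2ABbd was 4.85 times higher (4.24 to 5.54). Of the H2ABbd reads 2.69% lay on the plus strand, and of the 5mC reads 43.2%. Counting repeats there were 878 H2ABbd and 762 5mC reads, or 2.15 and 1.58 per distinct position.

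Chromosome 4 had 2 enriched regions close together, with opposite balance between the libraries. From 3006001 to 3014000 lay 868 5mC reads (29.5 times the mean, 27.6 to 31.6) and 75 H2ABbd reads (13.7 times, 10.8 to 17.2), so 5mC was 2.03 times higher per distinct read (1.60 to 2.60). From 3016001 to 3019000 lay 288 H2ABbd reads (140 times, 125 to 158, the highest H2ABbd fold of any region here) and 406 5mC reads (36.8 times, 33.3 to 40.6), so H2ABbd was 4.05 times higher (3.47 to 4.72). In the latter 94.4% of the H2ABbd reads lay on the plus strand and 63.1% of the 5mC reads. It had 3.23 H2ABbd reads per distinct position. The 2 stretches left out by rule had H2ABbd to 5mC ratios of 4.86 on chromosome 9 and 4.88 on chromosome 12. The blocks on chromosomes 11 and 4 had 4.85 and 4.05. All these ratios count distinct positions only, and the stretches held many more repeats. Reads per distinct position were 17.2 in H2ABbd and 7.93 in 5mC on chromosome 9, and 279 and 95.0 on chromosome 12. The ratios are therefore not like for like, and whether repeats bring them together was not tested.

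Strand bias at a milder threshold, 80% on 1 strand, was about as common over all autosomes. Shares at the stronger bias of the blocks above, or at their depth, were not counted. Of 38 H2ABbd regions with 20 or more distinct reads 8 had 80% or more of them on 1 strand (21.1%), against 22.1% of 2041 autosomal regions. In 5mC it was 2 of 47 (4.26%), against 3.86% of 3085. The strand threshold was chosen after the values were seen.

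On chromosomes 17 and 3 the library labelled 5mC formed long blocks in which the H2ABbd fold over the chromosome mean was lower. Every bin of these blocks was called in 5mC, and nothing was required of H2ABbd. A higher 5mC fold is therefore favoured by the choice of bins. The block of chromosome 17 from 3006001 to 3039000 held 1523 5mC reads, 17 to 89 per bin, at 11.5 times the mean (11 to 12.1). The 5 bins beyond it averaged 1.80. H2ABbd had 76 reads there, 3.14 times its mean (2.48 to 3.93), with 3 of 33 bins called. The densest bins of the megabase lay beyond the block, at 3077001 to 3078000 in H2ABbd (33 reads) and at 3082001 to 3083000 in 5mC (115 reads). On chromosome 3 the blocks from 3003001 to 3017000 and from 3021001 to 3034000 held 295 and 270 5mC reads, at 6.87 (6.11 to 7.70) and 6.77 times the mean (5.99 to 7.63). Their H2ABbd reads were 8 and 10, at 1.2 (0.518 to 2.36) and 1.61 times (0.774 to 2.97), with no bin called and intervals that include 1.

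**Figure D4:**
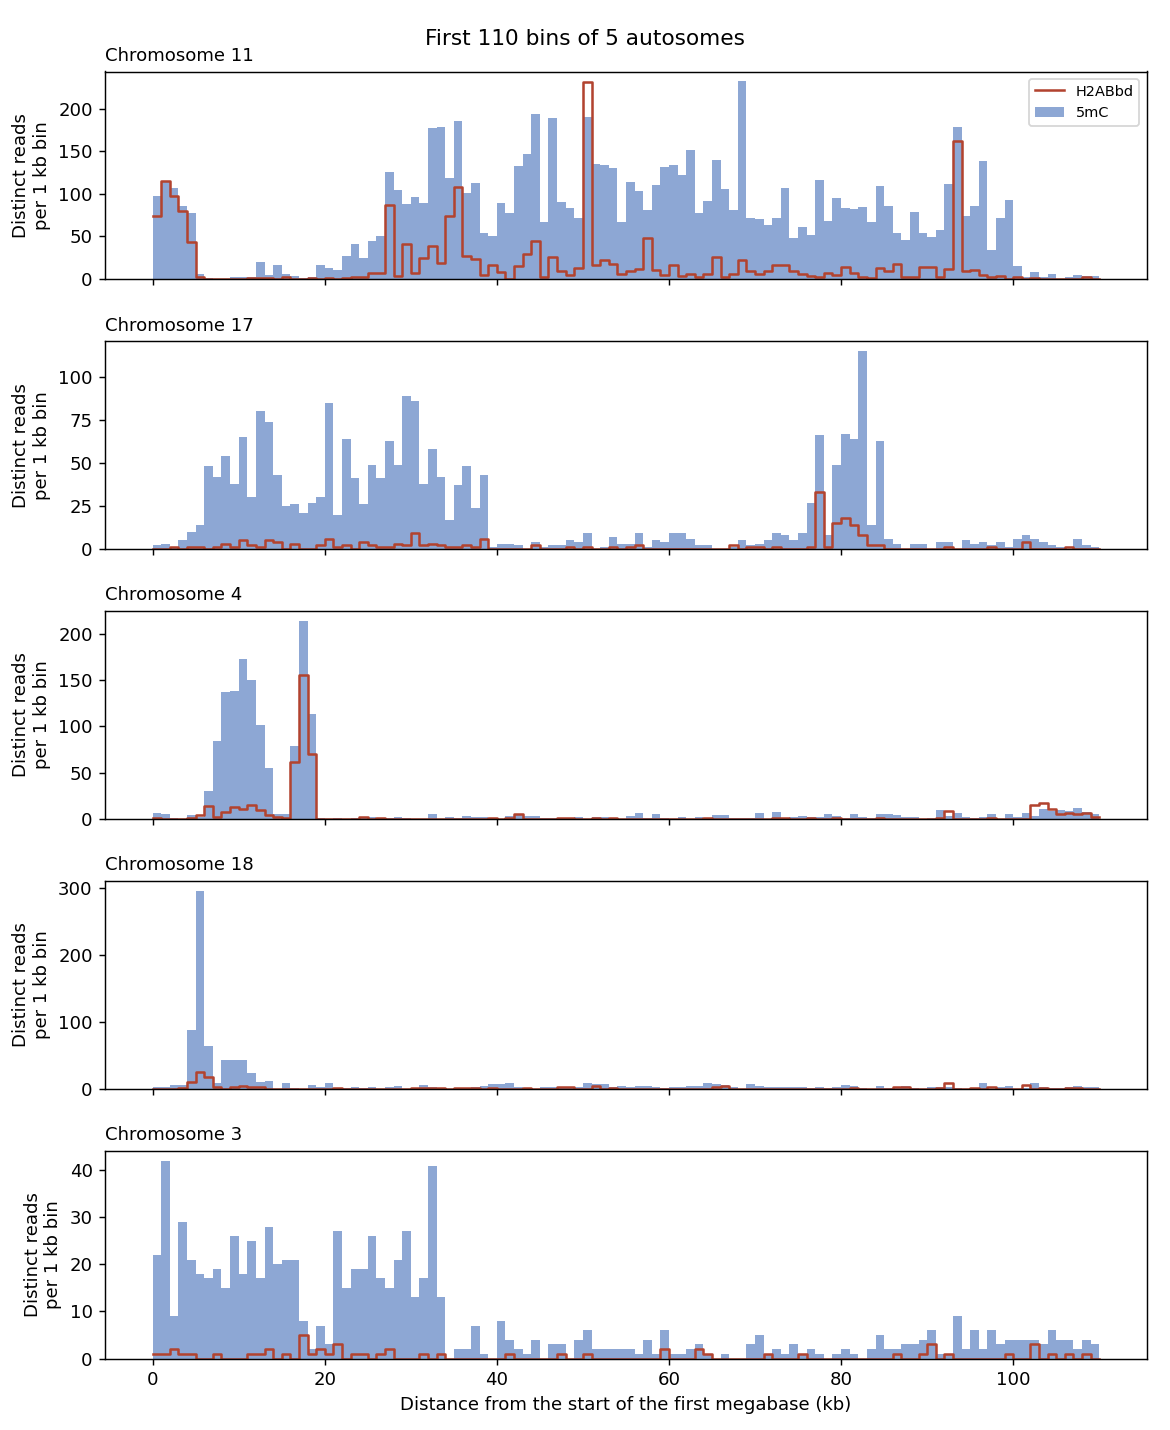
Distinct reads per 1 kb bin in the first 110 kb of chromosomes 11, 17, 4, 18 and 3, those with the most 5mC reads in their first 100 kb (bars, library labelled 5mC; line, library labelled H2ABbd), by distance from the start of the first megabase. The 5mC blocks of chromosomes 17 and 3 stop sharply at their distal ends, H2ABbd peaks at 231 reads inside the chromosome 11 block, and it stays at 0 to 9 reads per bin in the first 39 kb of chromosome 17.

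Chromosome 16 carried regions called in 5mC further in, and only in the first of those given here was the H2ABbd fold lower. From 3231001 to 3242000 it had 982 5mC reads (26.8 times the mean, 25.1 to 28.5) and 35 H2ABbd reads (6.09 times, 4.24 to 8.48), with no bin called in H2ABbd, and 5mC was 4.91 times higher per distinct read (3.51 to 7.09). From 3113001 to 3118000 the libraries were alike in fold, 18.4 for 5mC with 307 reads (16.4 to 20.6) and 19.5 for H2ABbd with 51 (14.5 to 25.7). The bin from 3351001 to 3352000 had the highest lower fold of all regions called in both, 51.7 for H2ABbd with 27 reads (34.1 to 75.2) and 43.2 for 5mC with 144 (36.4 to 50.8). Per distinct read these gave an H2ABbd to 5mC ratio of 1.07 (0.682 to 1.62).

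Other regions high in both libraries were short. Chromosome 13 from 3372001 to 3373000 held 205 5mC reads (61.1 times, 53.0 to 70.1) and 21 H2ABbd reads (40.5 times, 25 to 61.8). Chromosome 6 from 3150001 to 3152000 held 309 5mC reads (45.6 times, 40.6 to 51.0), the highest 5mC fold among the regions joined from 5mC calls, with 35 of H2ABbd (33.0 times, 23.0 to 45.9). Chromosome 18 from 3004001 to 3007000 held 447 (44.5 times, 40.5 to 48.9) and 52 (33.3 times, 24.9 to 43.7). Within the chromosome 11 block, 3042001 to 3045000 held 474 5mC and 89 H2ABbd reads (38.2 and 39.8 times), and 3065001 to 3066000 held 140 and 26 (33.8 and 34.9 times).

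**Figure D5:**
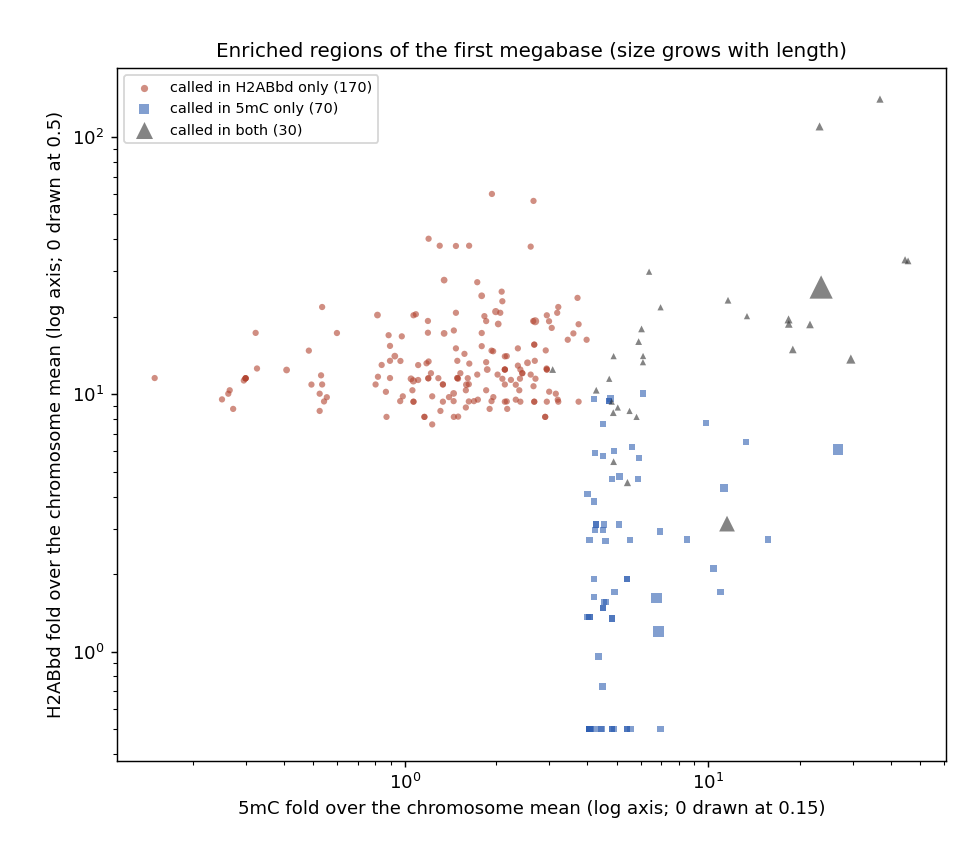
Fold over the chromosome mean in 5mC (x axis) and H2ABbd (y axis), both on log axes, for the 270 regions of the first megabases called in either library, with marks that grow with length. The classes are set by the calls: the 170 regions with H2ABbd calls alone lie at low 5mC folds because no bin was called in 5mC. Likewise the 70 with 5mC calls alone have no bin called in H2ABbd. The 30 with calls of both include the 78 kb block.

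The regions most unequal in favour of H2ABbd were 1 or 2 kb long and lay away from the blocks. Chromosome 15 from 3757001 to 3758000 held 37 H2ABbd reads (60.0 times the mean, 42.3 to 82.8) and 7 5mC reads (1.94 times, 0.779 to 3.99), a ratio of 30.2 per distinct read (13.3 to 80.3). Chromosome 16 from 3039001 to 3040000 held 21 and 4 reads, a ratio of 30.0 (10.1 to 120.2), and chromosome 7 from 3969001 to 3971000 held 26 and 6, a ratio of 24.8 (9.96 to 73.5). The chromosome 15 bin alone held 9.71% of the H2ABbd reads of its megabase. In these regions 5mC was close to its chromosome mean, with intervals that include 1. Ranking by the ratio favours low 5mC counts, so this level follows in part from the choice of regions.

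In favour of 5mC the most unequal regions were limited by the H2ABbd depth. Chromosome 10 from 3197001 to 3198000 held 38 5mC reads (11 times, 7.77 to 15.1) and 1 H2ABbd read, a ratio of 6.65 (1.12 to 269.6). Next came the first block of chromosome 3, at 6.46 (3.23 to 15.1). Chromosome 4 from 3152001 to 3154000 held 33 and 1, at 5.78, with an interval of 0.967 to 235 that includes 1.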

How the data were processed

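The deposited files list 1 alignment per line, each 42 bp long. The submitters' processing notes name FastQC, Bowtie and the mm9 build. No version or setting is given in the sources used here, nor is the handling of multiply aligned reads, on which levels at repeated sequence depend. The deposited score column was 255 on every line and was not used. Lines with broken separators (8 in H2ABbd, 1 in 5mC) were left out.

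Each position and strand was counted once, shifted 100 bp towards the 3' end and placed in a 1 kb bin. Poisson tails within 1 library, used as a filter, were adjusted by Benjamini-Hochberg over the bins of chromosomes 1 to 19 and X that held any read, and chromosome means used the same bins. The 95% intervals are exact conditional for folds over the flank and for library ratios of regions, exact Poisson for region folds, and log-scale from 4 counts for the ratio of folds. They cover counting error only, since copies made by PCR cannot be recognised. The steps were tested on simulated data.

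Chromosomes named by rule are the 3 highest and 3 lowest per library and in the ratio; chromosomes 12 and 19 were added after their values were seen. Regions named are the 5 of highest fold per library, the 5 called in both libraries ranked by the lesser fold, the 3 most unequal in each direction with 20 or more reads, and the long stretches. The megabases and lists were chosen with earlier results of these data known. All 30 alternative settings listed at the outset were run, and 7 were added after seeing the data. Python 3.11.15, numpy 2.4.6, scipy 1.17.1 and matplotlib 3.10.9 were used.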

Additional observations from a re-analysis of the deposited data

Results flagged for a closer look

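The stretches left out by rule held signal outside the comparisons. Chromosome 9 from 2999001 to 3039000 stood 926 times above the chromosome mean in the library labelled H2ABbd and 246 times in that labelled 5mC. Chromosome 12 from 3109001 to 3111000 stood at 248 and 62.0 times.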

How the results depend on the processing

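No paired analysis was possible because each antibody had 1 library. Values are for H2ABbd, 5mC and their ratio; causes were not tested. The pooled folds were 1.39 and 1.31 with all reads kept, 1.21, 1.24 and 0.980 with a flank of 4 to 7 Mb, and 1.64, 1.44 and 1.14 with one of 10 to 20 Mb. They were 1.66, 1.55 and 1.07 at 3 to 3.5 Mb, 1.09, 1.09 and 1.00 at 3.1 to 4 Mb, and 4.88, 1.97 and 2.48 with the left-out stretches kept. Without the most covered bins they were 1.10 and 1.08, without called bins 1.10 and 1.06, and over bins with a read 1.27 in 5mC. Leaving out each chromosome in turn gave 1.15 to 1.42 (H2ABbd), 1.15 to 1.33 (5mC) and 0.997 to 1.09 (ratio), with 0.997 without chromosome 11. With all reads kept the median ratio was 0.957. Shifts of 0 and 150 bp kept every pooled and single-chromosome value within its counting interval. The medians stayed within the quartiles over chromosomes.

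Of 627 single-chromosome values under alternatives 61 lay on the other side of 1 from the reported value. For 30 of these the reported counting interval included 1, and they are not listed. The other 31, whose interval excluded 1, follow. With all reads kept this was H2ABbd on chromosome 6 (0.953). With the flank of 4 to 7 Mb it was H2ABbd on chromosome 14 (1.03), 5mC on 6 (0.978), 7 (0.885) and 19 (0.922), and the ratio on 11 (0.999). With that of 10 to 20 Mb it was H2ABbd on 3 (1.05), 14 (1.19) and 15 (1.14) and 5mC on 8 (0.877), 10 (1.06), 14 (1.29) and 15 (1.05). At 3 to 3.5 Mb it was 5mC on 19 (0.965) and the ratio on 8 (0.943). Without the most covered bins it was 5mC on 6 (0.990), 16 (0.966), 17 (0.801) and 18 (0.977) and the ratio on 11 (0.928). Without called bins it was H2ABbd on 16 (0.992), 5mC on 6 (0.951), 16 (0.924), 17 (0.801) and 18 (0.980), and the ratio on 4 (0.956) and 7 (1.01). At 3.1 to 4 Mb it was 5mC on 17 (0.764) and 18 (0.949) and the ratio on 4 (0.983) and 11 (0.976).

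Enriched 5mC bins numbered 132 with 5mC thinned to the H2ABbd depth and 165 at 8-fold or more, and H2ABbd bins 136 at an adjusted tail of 1e-05. In 5 kb bins the counts were 171, 51 and 34 in both. Without the most covered bins they were 124 in 5mC and 16 in both, at 3.1 to 4 Mb 112 and 26, and without chromosome 11 46 in both. Autosomal shares under the same settings are not set beside these counts here, so the counts alone do not show an excess over the autosomes. Empty bins were 0.528% at 5 kb. Repeated reads were 93.2% and 73.5% with the stretches kept and 15.8% and 3.73% without the most covered bins. The H2ABbd depth, 0.684 reads per kb, limits single bins.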
